A study of Mus musculus with 4 samples.

Results

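Astrocytes, the star-shaped support cells of the brain, clear glutamate, water and potassium from the space around neurons, and 9 genes that serve this housekeeping were compared between the injured cortex of mice labelled Ndrg2KO and of WT mice. The genes were Slc1a2 and Slc1a3 (glutamate uptake), Glul (conversion of glutamate to glutamine), Aqp4 (water), Kcnj10 and Atp1b2 (potassium), Slc4a4 (bicarbonate), and Gja1 and Gjb6 (gap junctions). They were chosen by name, with earlier results of these data known. Each probe outside the controls whose RefSeq accession mapped to one of these symbols was taken and kept apart from the others. This gave 14 probes for the 9 genes, out of 30259 probes tested, of which those with a symbol stood for 17014 genes. The scanner software called all 14 well above background in both channels on every array, the dimmest of them, a probe of Slc4a4, at only about 2 times the local background, so none was lost to the filter on dim probes.

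The series held 4 arrays with 2 colours, all of C57BL/6 mice aged 8 weeks. Every mouse had undergone permanent occlusion of the left middle cerebral artery (pMCAO, a model of ischaemic stroke) by electrocoagulation, and the cortex of that side was taken 24 h later. On each array an Ndrg2KO-labelled sample, in Cy3, was set against a WT sample of the same replicate number, in Cy5. Ndrg2 is strongly expressed by astrocytes. The labels say neither which part of it was deleted nor in which cells, whether a sample came from a single animal, or of which sex the mice were. P-values therefore measure only how much these samples vary, technical variation included, and no uninjured cortex was compared. The dyes were never swapped, so a probe's dye effect and genotype cannot be told apart.

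As background, glutamate released at synapses is taken up by astrocytes through the sodium-driven transporters GLT-1 (Slc1a2) and GLAST (Slc1a3) and turned into glutamine by glutamine synthetase (Glul), which neurons take back to make new transmitter. The water channel aquaporin 4 (Aqp4) and the inward rectifier channel Kir4.1 (Kcnj10) are dense on the astrocyte endfeet that wrap vessels, and the sodium pump subunit Atp1b2 helps to bring potassium back into cells. Connexins 43 (Gja1) and 30 (Gjb6) join astrocytes into a network that spreads ions, and the sodium bicarbonate cotransporter NBCe1 (Slc4a4) moves bicarbonate across the membrane. After arterial closure, these genes bear on how much glutamate, potassium and water collects in the tissue.

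The start regions of 3 of these genes are shown because 2 of them, Slc1a2 and Glul, were lower in the Ndrg2KO-labelled cortex and the other glutamate transporter, Slc1a3, did not pass the test. Each is the 250 bases before an annotated transcript start, 5′ to 3′ on the gene's strand, from RefSeq on GRCm38.p6. Capitals mark TTGGC or its reverse complement GCCAA, the core motif of the nuclear factor I family, whose members act in astrocyte development.
Slc1a2: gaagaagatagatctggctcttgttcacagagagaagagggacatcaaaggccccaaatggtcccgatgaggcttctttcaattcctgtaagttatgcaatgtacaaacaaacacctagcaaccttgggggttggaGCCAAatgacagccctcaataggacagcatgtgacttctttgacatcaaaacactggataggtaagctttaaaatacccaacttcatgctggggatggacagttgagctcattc
Glul: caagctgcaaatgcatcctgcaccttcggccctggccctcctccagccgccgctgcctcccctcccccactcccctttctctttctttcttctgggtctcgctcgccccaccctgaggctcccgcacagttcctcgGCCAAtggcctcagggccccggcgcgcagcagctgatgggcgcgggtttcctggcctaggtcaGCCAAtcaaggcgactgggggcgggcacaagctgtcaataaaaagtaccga
Slc1a3: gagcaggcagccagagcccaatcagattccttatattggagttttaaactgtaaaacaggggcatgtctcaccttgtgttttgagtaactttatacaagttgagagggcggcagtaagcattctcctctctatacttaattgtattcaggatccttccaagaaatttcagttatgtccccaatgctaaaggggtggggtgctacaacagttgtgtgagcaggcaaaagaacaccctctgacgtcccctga
The Slc1a2 window is chr2:102706188-102706437 on the plus strand, before 1 annotated start that lies inside the gene, the Glul window chr1:153899679-153899928 on the plus strand, and the Slc1a3 window chr15:8710808-8711057 on the minus strand. On both strands together the motif was found once in the Slc1a2 window, at 2 places in the Glul window and at 0 places in the Slc1a3 window. Among other members that did not pass, it was at 1 place for Kcnj10 and at 2 and 1 in the windows of Slc4a4. The windows of Gja1 and Gjb6 held 0. For Aqp4 and Atp1b2, which were lower, no window was searched, so whether the motif follows the calls was not tested. Of all 32817 such windows, 41.5% held it. The other motifs searched on both strands were ACAAT (SOX factors), TTCNNNGAA (STAT factors) and TATAAA (the TATA box). The Slc1a3 window held 1 of each, the Slc1a2 and Glul windows 0 of each, and 27.7%, 7.01% and 12.4% of all windows held at least 1. These matches are a description of letters, and which factors bind was not measured.

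Ndrg2 itself had normalised log2 levels of 15.50, 15.56, 15.57 and 15.56 in the Ndrg2KO-labelled samples of arrays 1 to 4, against 15.72, 15.78, 15.75 and 15.67 in the WT samples. The groups did not overlap, but the log2 ratio was only -0.18 ± 0.05 (SD, n = 4; limma, adjusted p = 0.0244), and the spot was still 669 to 900.5 times the local background in the Ndrg2KO-labelled channel. The log2 ratios computed by the scanner software lay nearer 0, at -0.08, -0.12, -0.01 and 0.04 on arrays 1 to 4, so the decrease depended on the processing. A probe outside a deleted stretch would check nothing, so the genotype could not be checked and the samples are called by their label. Per the file headers, the observed log ratios of spike-in controls had slopes of 0.728 to 0.739 against the expected ones.

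Of the 9 genes, 4 were lower in the Ndrg2KO-labelled cortex by the brightest probe of each (limma, adjusted p under 0.05): Aqp4, Slc1a2, Glul and Atp1b2. None was higher, and 5 did not pass: Slc1a3, Kcnj10, Slc4a4, Gja1 and Gjb6. That is 44.4% of the members, where 12.7% of all 17014 genes were lower and 8.89% higher on the same rule. Since the members were chosen with earlier results of these data known, these shares are a description and their difference was not tested. Probe by probe, 6 of 14 were lower, where 11.7% of all probes were lower and 9.29% higher, and 13 of the 14 had a mean below 0. The decreases that passed lay between -0.46 and -0.21 on the log2 scale, so each was under 1.4-fold. The median of the 9 genes was -0.16, against -0.02 over all genes. In whole tissue, fewer astrocytes and less of an RNA in each astrocyte cannot be told apart.

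**Figure D1:**
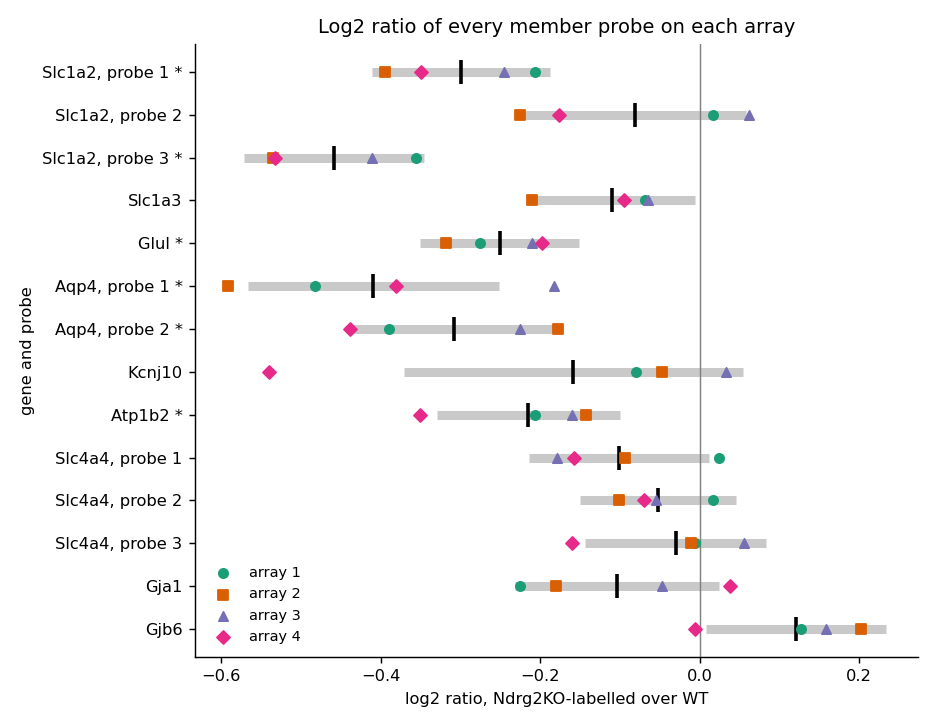
Each point is the log2 ratio of Ndrg2KO-labelled over WT on 1 array for 1 member probe (horizontal axis; probes of a gene are numbered from the brightest), with the mean of 4 arrays as a black tick and its 95% interval from limma as a grey bar; an asterisk marks an adjusted p under 0.05. Below 0 on all 4 arrays lie both Aqp4 probes, 2 of the 3 Slc1a2 probes, Glul, Atp1b2 and Slc1a3, the last of which did not pass. Of all probes tested, 23.5% were lower on all 4 arrays. Gjb6 is above 0 on 3 of 4.

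Slc1a2, which carries most glutamate uptake in the forebrain, fell. Its brightest probe, A_55_P1955412, drawn from transcript NM_011393, had normalised log2 levels of 13.59, 13.52, 13.70 and 13.45 in the Ndrg2KO-labelled samples of arrays 1 to 4, against 13.80, 13.91, 13.95 and 13.80 in the WT samples. Every Ndrg2KO-labelled sample lay below every WT sample. The log2 ratio was -0.30 ± 0.09 (SD, n = 4; limma, adjusted p = 0.00845), a 1.23-fold decrease.

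The gene's other probes, both drawn from transcript NM_001077514, disagreed with each other. Probe A_55_P2392625 had levels of 10.65, 10.58, 10.81 and 10.53 in the Ndrg2KO-labelled samples, against 11.003, 11.12, 11.22 and 11.07 in the WT samples, again without overlap. It gave the lowest ratio of all members, -0.46 ± 0.09 (adjusted p = 0.00229), and 0.925% of all probes lay lower still. Probe A_55_P2136847 had levels of 10.91, 10.83, 11.07 and 10.78 in the Ndrg2KO-labelled samples, against 10.90, 11.06, 11.01 and 10.96 in the WT samples. Here the groups overlapped, and the mean of -0.08 ± 0.14 did not pass (adjusted p = 0.358; 95% interval -0.22 to 0.06). On every array A_55_P2392625 had the lower ratio of the pair, by a mean of -0.38 ± 0.07, and an exact sign-flip test of the 4 differences gave its smallest possible two-sided p of 0.125. The probe sequences were not used here, so which exons the probes cover is not given.

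Slc1a3, the glutamate transporter best known from radial glia and cerebellar astrocytes, had levels of 13.36, 13.42, 13.50 and 13.41 in the Ndrg2KO-labelled samples, against 13.43, 13.63, 13.57 and 13.51 in the WT samples. It was lower on each array, but the groups overlapped and the mean of -0.11 ± 0.07 did not pass (adjusted p = 0.119; 95% interval -0.21 to -0.01 before any adjustment). The ratio of the brightest Slc1a2 probe lay below that of Slc1a3 on 4 of 4 arrays, by -0.19 ± 0.05, with the same smallest possible exact p of 0.125, so 4 arrays cannot show by this test that the transporters differed.

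Glul, the enzyme that detoxifies the glutamate taken up, fell. Its levels were 15.06, 14.98, 15.04 and 15.01 in the Ndrg2KO-labelled samples, against 15.34, 15.29, 15.25 and 15.20 in the WT samples, with no overlap. The ratio of -0.25 ± 0.06 (SD, n = 4; limma, adjusted p = 0.00999) is a 1.19-fold decrease. When the log ratios computed by the scanner software were used, it was -0.18 and did not pass (adjusted p = 0.0641).

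Aqp4, the main water channel of the brain and the member that governs swelling of endfeet, fell by both of its probes. The brighter, A_55_P2000369, had levels of 11.37, 11.53, 11.82 and 11.53 in the Ndrg2KO-labelled samples, against 11.85, 12.12, 12.00 and 11.91 in the WT samples. The highest Ndrg2KO-labelled sample, on array 3, lay just under the lowest WT sample, on array 1. The ratio was -0.41 ± 0.17 (SD, n = 4; limma, adjusted p = 0.00908), or 1.33-fold, and 1.47% of all probes lay lower.

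The other Aqp4 probe, A_55_P2031939, had levels of 11.26, 11.67, 11.82 and 11.52 in the Ndrg2KO-labelled samples, against 11.65, 11.85, 12.04 and 11.96 in the WT samples. These overlapped between arrays, while each array showed a lower Ndrg2KO-labelled value. Its ratio was -0.31 ± 0.13 (adjusted p = 0.0117), or 1.24-fold. Without replicate 1 the adjusted p was 0.0506, and with no replicate block, which ignores the pairing of samples on an array, 0.122. The probes differed most on array 2, at -0.59 and -0.18, although both are drawn from the same transcript.

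Kcnj10, the potassium channel of astrocyte endfeet, depended on a single array. It had levels of 14.34, 14.47, 14.50 and 14.12 in the Ndrg2KO-labelled samples, against 14.42, 14.52, 14.47 and 14.66 in the WT samples. On array 4 the Ndrg2KO-labelled sample was the lowest of its group and the WT sample the highest of its own. The ratios were -0.08, -0.05, 0.03 and -0.54, and the mean of -0.16 ± 0.26 did not pass (adjusted p = 0.246; 95% interval -0.37 to 0.05). Without replicate 4 the mean was -0.03.

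Atp1b2, the sodium pump subunit that was first described as an adhesion molecule on glia, fell. Its levels were 14.92, 15.01, 14.88 and 14.56 in the Ndrg2KO-labelled samples, against 15.12, 15.15, 15.04 and 14.91 in the WT samples. The groups overlapped, since array 4 was low in both, while every array had the lower value in the Ndrg2KO-labelled sample. The ratio was -0.21 ± 0.09 (SD, n = 4; limma, adjusted p = 0.0234), or 1.16-fold. It was lost without replicate 1, 2, 3 or 4 (adjusted p = 0.0541 to 0.0751), with plain background subtraction (0.0633) and with no replicate block (0.168).

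Slc4a4 had 3 probes, and none passed. The brightest, A_55_P1959228, had ratios of 0.02, -0.09, -0.18 and -0.16 on arrays 1 to 4 and a mean of -0.10 ± 0.09 (adjusted p = 0.174). The next, A_55_P1967776, was at -0.05 ± 0.05 (adjusted p = 0.403), with a 95% interval of -0.15 to 0.05. The dimmest, A_52_P457567, was at -0.03 ± 0.09 (adjusted p = 0.687); its spot was only 1.81 to 2.11 times the local background in the Ndrg2KO-labelled channel and 1.88 to 2.21 times in the WT channel.

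The connexin genes did not pass in either direction. Gja1 was measured by 10 spots of 1 probe, so the spread between spots can be given, which does not cover labelling or hybridisation. Its ratios were -0.23, -0.18, -0.05 and 0.04 on arrays 1 to 4. The SD between spots of an array was 0.03 to 0.05. The mean of -0.10 ± 0.12 (SD, n = 4 arrays) did not pass (adjusted p = 0.212; 95% interval -0.23 to 0.02). Gjb6 was the member above 0: its levels were 13.79, 13.97, 14.02 and 13.73 in the Ndrg2KO-labelled samples, against 13.67, 13.77, 13.86 and 13.74 in the WT samples. The ratio was 0.12 ± 0.09, higher on 3 of 4 arrays, and did not pass (adjusted p = 0.114; 95% interval 0.01 to 0.23 before any adjustment). Gjb6 lies on chromosome 14, as does Ndrg2. The ratio of Gja1 minus that of Gjb6 was -0.22 ± 0.20, below 0 on 3 of 4 arrays (exact sign-flip test, two-sided, p = 0.25).

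**Figure D2:**
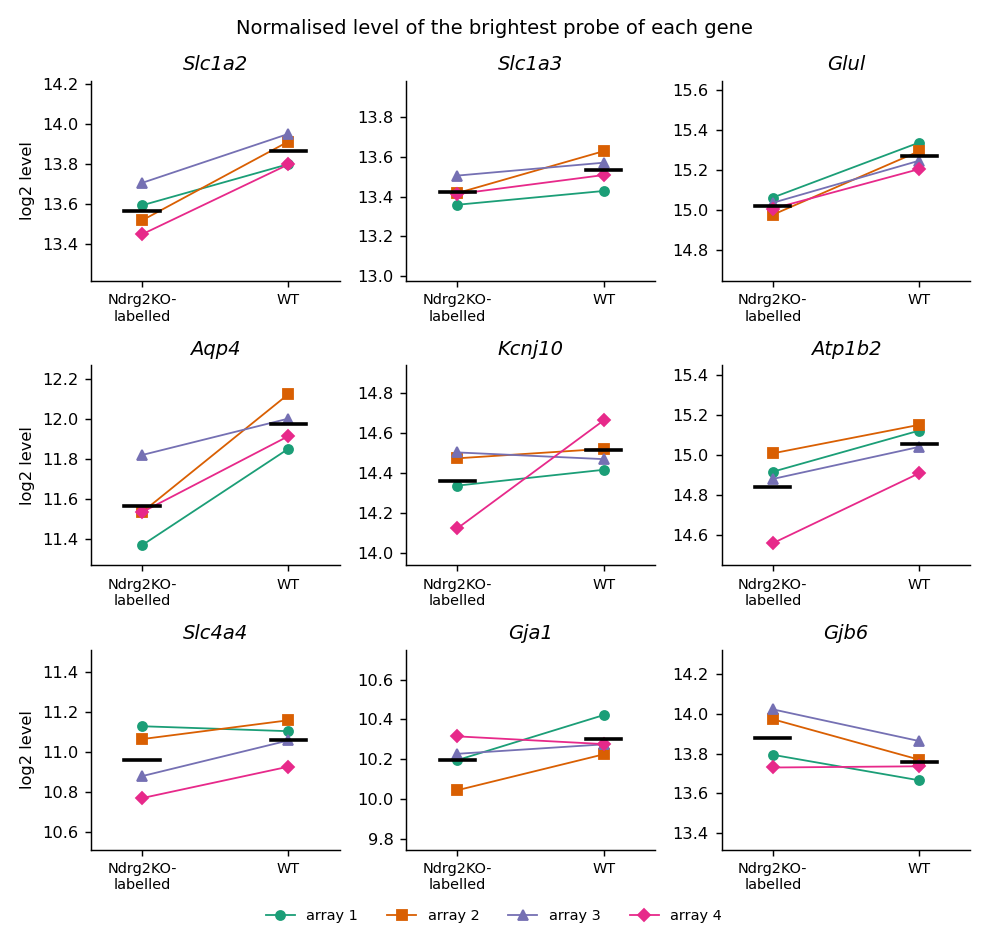
Normalised log2 level (vertical axis, spanning 1 log2 unit in each panel) of the brightest probe of each gene in the Ndrg2KO-labelled and the WT sample of each array, joined by a line, with group means as black bars. The groups do not overlap for Slc1a2, Glul and Aqp4; for Kcnj10 the line of array 4 alone is steep.

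Levels did not overlap between the groups for 4 of the 14 probes, all lower in the Ndrg2KO-labelled samples, whereas 9.84% of all probes were lower and 9.68% higher without overlap. The median ratio of the member genes was -0.21, -0.18, -0.16 and -0.20 on arrays 1 to 4, while single members such as Kcnj10 and Gja1 varied more between arrays. Over all probes, arrays 1 and 2 gave r = 0.73 and arrays 3 and 4 gave r = 0.63, and the remaining pairs of arrays gave lower values, between 0.41 and 0.47.

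Brightness is a technical measure that can move with log ratios. The members were bright, 13 of 14 in the upper range above the median probe, where 14.4% of probes were lower and 14.1% higher. After loess, the median ratio in the 20 equal bins of mean intensity ran from -0.03 to 0.03, so members differ from their own bins by about what they differ from 0. The brightest bin, which held Glul and Atp1b2, was itself at -0.03 with 23.9% of its probes lower; against it Glul stood at -0.22 and Atp1b2 at -0.18. The brightest Slc1a2 probe stood at -0.33 against its bin, of which 21.2% were higher, and the brighter Aqp4 probe at -0.41 against a bin with 14.2% lower. With the local median of like-bright probes subtracted on each array, all 6 calls were kept.

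**Figure D3:**
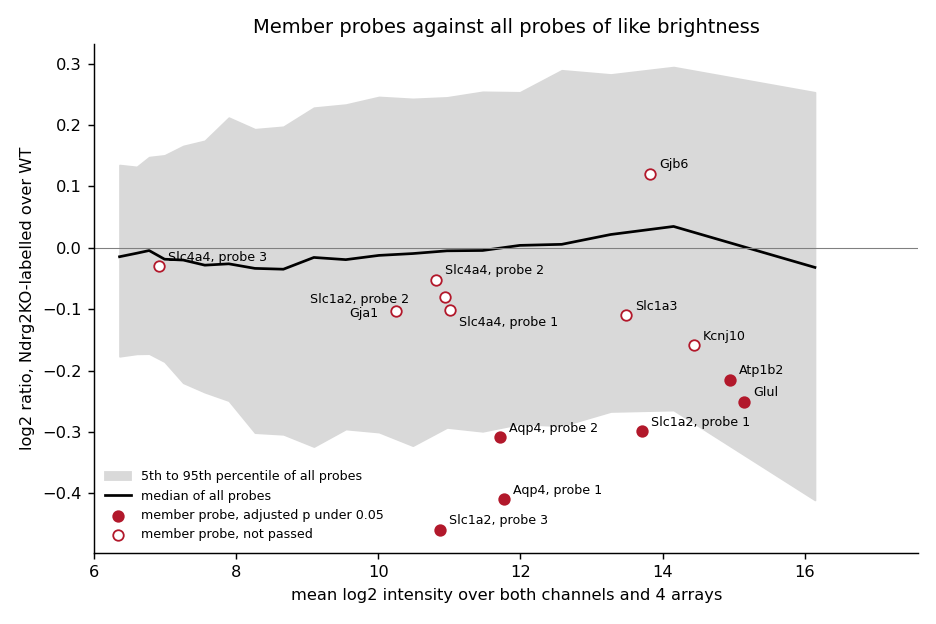
Log2 ratio of Ndrg2KO-labelled over WT (vertical axis) against mean log2 intensity (horizontal axis) for the 14 member probes, filled where the adjusted p was under 0.05, with the median (line) and 5th to 95th percentile (band) of all probes in 20 bins. Both Aqp4 probes and 2 Slc1a2 probes lie below the band, and Glul and Atp1b2 lie inside it.

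The genes around the members were taken from 5 lists of their pathways. All gene lists were chosen with earlier results of these data known, so their counts are a description. Of 88 such genes tested, 21 were lower (23.9%, against 12.7% of all genes), 4 higher (4.55%, against 8.89%) and 63 did not pass; their median was -0.07. Without replicate 1, 2, 3 or 4 the lower count was 9, 9, 10 or 13. Over all probes the lower calls also fell with a replicate left out, from 3527 to between 1356 and 2164.

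Among glutamate and glutamine genes 7 of 23 were lower, 3 higher and 13 did not pass. Slc1a4, a transporter of alanine, serine and cysteine, had ratios of -0.52, -0.64, -0.50 and -0.56 on arrays 1 to 4, a mean of -0.56 ± 0.06 (adjusted p = 0.00131). Slc1a1, the neuronal glutamate transporter EAAC1, fell by 0.32 ± 0.11 (adjusted p = 0.00954), and the cystine and glutamate exchanger gene Slc7a11 by 0.31 ± 0.15 (adjusted p = 0.0149). The 3 that rose were Slc1a6, the glutamate transporter of cerebellar Purkinje cells, the glutamine transporter gene Slc38a2 and the mitochondrial aspartate aminotransferase gene Got2. Slc1a6 stood at 0.29 ± 0.08 (adjusted p = 0.00844) and Got2 at 0.22 ± 0.06 (adjusted p = 0.0137). Slc38a2, at 0.23 ± 0.17, passed only narrowly (adjusted p = 0.0487). These 3 were named because few genes rose, after their values were seen, and their single values under the alternatives are not given here. Over all pathway lists, the count of higher genes was 4. It was 1 without replicate 1, 2 or 3, then 3 without replicate 4, and 6 with no background subtraction. Of the 15 alternatives, Slc7a11 lost its call in 5, and Slc1a4 and Slc1a1 in 0.

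Of the genes that anchor or accompany the water channel, 2 of 16 were lower, 1 higher and 13 did not pass. Utrn, a relative of dystrophin, fell by 0.16 ± 0.05 (adjusted p = 0.0342). Dag1, which encodes dystroglycan of the same complex, rose by 0.18 ± 0.06 (adjusted p = 0.0278). Neither call was stable: of the 15 alternatives, Utrn lost its call in 9 (adjusted p up to 0.118), and Dag1 lost its call in 6 (adjusted p up to 0.0937) and turned round in 1, median centring.

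Of the potassium and sodium pump genes 4 of 16 were lower and 12 did not pass. Kcnj16, whose Kir5.1 subunit joins Kir4.1 in one channel, had ratios of -0.09, -0.22, -0.28 and -0.41 on arrays 1 to 4, a mean of -0.25 ± 0.13 (adjusted p = 0.0239). The sodium calcium exchanger gene Slc8a3 fell by 0.20 ± 0.11 (adjusted p = 0.0330), with a second, dim probe at -0.04. Of the 15 alternatives, Kcnj16 lost its call in 6 (adjusted p up to 0.0758) and Slc8a3 in 8 (adjusted p up to 0.233).

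Of gap junction genes 2 of 15 were lower and 13 did not pass. Tjp1, a scaffold protein that binds connexin 43, fell by 0.25 ± 0.10 (adjusted p = 0.0155) and lost its call in 4 of the 15 alternatives. Of bicarbonate and acid handling genes 6 of 18 were lower and 12 did not pass. The bicarbonate transporter genes Slc4a2 and Slc4a8 fell by 0.36 ± 0.13 (adjusted p = 0.00823) and 0.32 ± 0.10 (adjusted p = 0.00840), whereas no Slc4a4 probe passed. Car8, a carbonic anhydrase relative without enzyme activity, fell by 0.32 ± 0.07 (adjusted p = 0.00561), and its second probe also stood at -0.32.

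Other astrocyte markers stood near 0 as a list. Of 26 tested, 4 were lower, 2 higher and 20 did not pass, near the 12.7% lower and 8.89% higher of all genes, and the median was -0.02, between -0.03 and 0.01 on single arrays. The glycolytic enzyme gene Aldoc fell by 0.39 ± 0.09 (adjusted p = 0.00396) and Ranbp3l by 0.24 ± 0.06 (adjusted p = 0.0123), with a second Ranbp3l probe at 0.07 that did not pass, while Etnppl, an enzyme gene of phospholipid breakdown, rose by 0.30 ± 0.16 (adjusted p = 0.0177). Of the 15 alternatives, Aldoc lost its call in 2, and Etnppl lost its call in 3 and turned round in 1. Of 24 reactive astrocyte genes, 2 were lower, the adhesion receptor gene Cd44 at -0.34 ± 0.23 and the copper protein gene Cp at -0.23 ± 0.17. Cd44 lost its call in 6 of the 15 alternatives (adjusted p up to 0.186) and Cp in 9 (adjusted p up to 0.233), and a second Cd44 probe did not pass (adjusted p = 0.138). The list had medians of -0.36, -0.39, 0.07 and -0.03 on arrays 1 to 4.

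The counts for other cell types are to be read against the 12.7% of all genes that were lower and the 8.89% that were higher, and the part of these cells in the member results was not tested. Microglia markers had 8 of 18 lower (Ctss at -0.45 ± 0.11), infiltrating myeloid cells 5 of 16 (Ms4a4c at -0.49 ± 0.09, with 2 dim probes that did not pass), endothelial and mural cells 5 of 20 (Pltp at -0.38 ± 0.12), and neurons 4 of 20, with 2 neuronal markers higher (Nefm at 0.26 ± 0.04). Striatal and subcortical markers had 2 of 12 lower, ependymal and choroid plexus markers 2 of 10, and oligodendrocyte markers 0 of 17 with 2 higher (Mal at 0.39 ± 0.19). Oligodendrocyte medians were -0.17, -0.24, 0.24 and 0.37 on arrays 1 to 4 and striatal medians -0.35, -0.42, 0.16 and -0.06. The median of the member genes lay between -0.21 and -0.16 on every array, but Gja1 and the brighter Aqp4 probe were also lower on arrays 1 and 2 than on arrays 3 and 4. Over all 163 marker genes 32 were lower (19.6%) and 6 higher (3.68%), and without replicate 1 or 2 the lower count was 15 or 11.

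**Figure D4:**
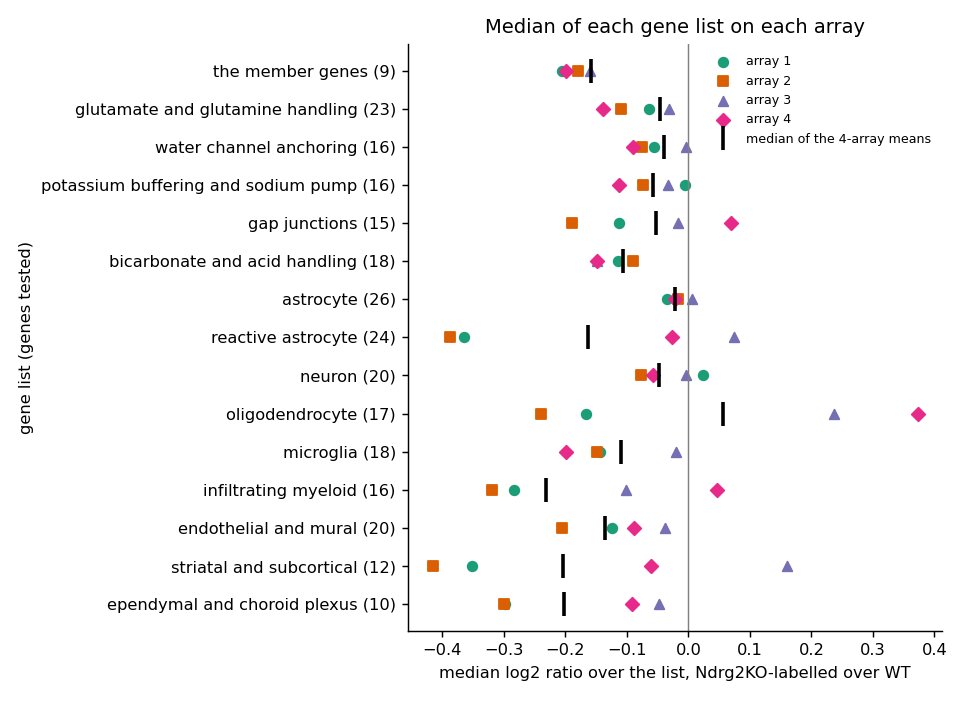
Median log2 ratio of Ndrg2KO-labelled over WT (horizontal axis) of the 9 member genes, the pathway lists and the cell type lists on each array (points), with the median of the genes' 4-array means as a black tick; the number of genes tested is in brackets. The points of the member genes lie together near -0.2, while those of oligodendrocyte and striatal markers lie on both sides of 0.

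Genes with the most similar values were sought for the 4 members that passed, by the smallest Euclidean distance over the ratios of the 4 arrays among 16044 named genes. Nearest to Slc1a2 were Ints11 at a distance of 0.041 and Gpr162 at 0.058, nearest to Glul were Ssh3 at 0.024 and Ttc30b at 0.030, and nearest to Aqp4 were Vwa8 at 0.093 and Rnf125 at 0.108. Nearest to Atp1b2 were Atp2a2, the calcium pump of the endoplasmic reticulum, at 0.039 and the olfactory receptor gene Olfr870 at 0.057. These distances were not tested.

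The calls differed in how they stood up to other processing. Of 15 alternatives, the brighter Aqp4 probe and the brightest Slc1a2 probe passed in all 15, and the lowest Slc1a2 probe in all 14 in which it was tested. Glul passed in 13 of 15, the other Aqp4 probe in 12 of 14 and Atp1b2 in 9 of 15. With arrays centred on their median in place of loess, the median of all probes moved to -0.16 and that of the brightest bin to -0.64; there 13 of 14 member probes were lower, while 51.6% of all probes were. Relative to the bins of like brightness under that scaling, Glul stood at -0.19 and Aqp4 at -0.40 and -0.31. Gjb6, whose median-centred ratio turned to -0.32, stood at 0.12 against its bin.

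**Figure D5:**
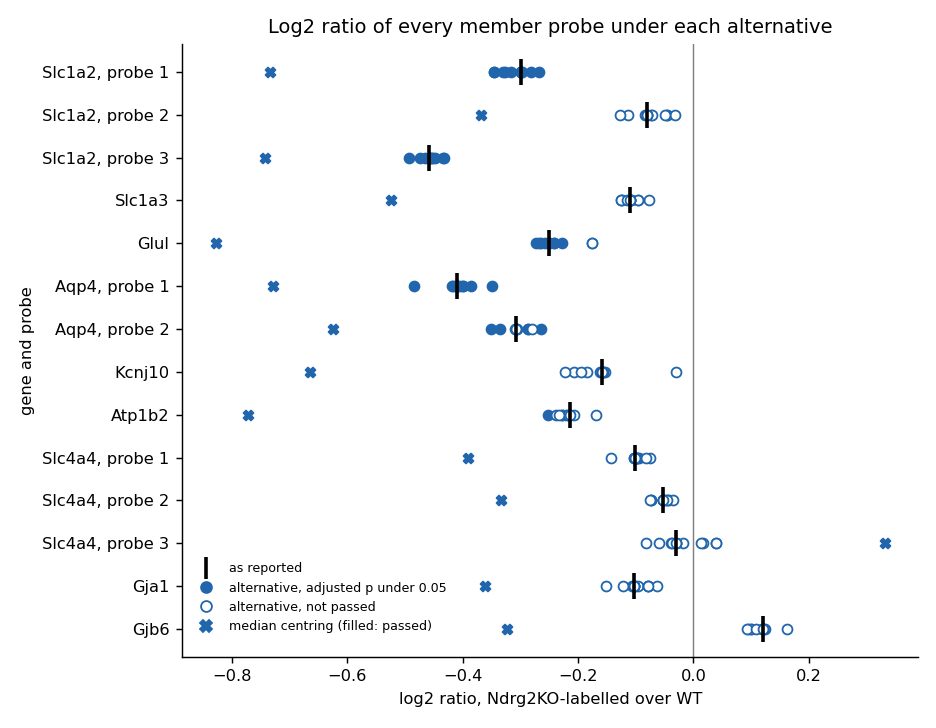
Log2 ratio of Ndrg2KO-labelled over WT (horizontal axis) of each member probe as reported (black tick) and under each alternative (circles, filled where the adjusted p was under 0.05), with median centring in place of loess as a cross. Atp1b2 has both filled and open circles, and the circles of Kcnj10 reach -0.03 without replicate 4.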

How the data were processed

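Total RNA was measured on 4 arrays with 2 colours. Per the file headers, Agilent Feature Extraction 11.0.1.1 produced the intensities, while 10.7.3.1 is the version in the submitters' processing notes. Per the file headers, the deposited log10 ratios are Cy5 over Cy3 of background-subtracted, dye-normalized signals. The deposited series matrix holds log2 values of the same ratio, WT over Ndrg2KO (to within 0.001 for 39030 probes with 1 spot), with column medians of -0.05, -0.06, -0.04 and -0.03 and no further centring; its sign was turned here. Other deposited columns are flags, per the file headers.

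The files used here held no mean spot signal, so median spot and background signals were corrected with normexp (offset 50) and normalized by loess within arrays in limma 3.58.1 (R 4.3.3). Control spots and 139 to 186 outlier spots per array were dropped, and replicate spots of a probe were averaged. Probes were kept if well above background on at least 3 of 4 arrays in either channel: 30259 of 39429. No spot was saturated. Accessions were named through RefSeq genes of GRCm38.p6 (69.6% of probes). limma's lmFit and eBayes tested whether each probe's mean log2 ratio of Ndrg2KO over WT differed from 0, with Benjamini-Hochberg adjustment across all probes. The array is the replicate block, since both samples of a number share an array. Levels are channel values after loess and Aquantile. The labels give no date or batch beyond the array. The number of arrays limits the precision.

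In a simulation built on the 30259 probes, 16 of 50 probes changed by 1.2-fold, 39 of 50 by 1.5-fold and 48 of 50 by 2-fold were recovered, with 5 false calls, and data with no change gave 0 calls. Only 50 probes were changed there, whereas 6338 (20.9%) passed in the data, so these rates do not carry over to the members. They also give no measure of calls due to a dye effect, since the dyes were never swapped. The members and gene lists were chosen with earlier results of these data known. Genes named beyond the members were up to 3 that passed with the largest ratio in each list, the 2 nearest genes by distance, and 3 others picked with their values known, as stated there. Some list genes were not tested, and some genes that the naming rule gives are not reported here. Alternatives were other background corrections, scalings, filters and tests, 1 probe a gene, no pairing, and each replicate left out.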

Additional observations from a re-analysis of the deposited data

Results flagged for a closer look

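Among 51 named probes or genes, 2 had 1 array lying so far from the remaining 3 that its distance to the closest of them, as a share of the full range, passed Dixon's 95% limit for 4 samples. About 1 in 20 would do so by chance, which makes 2.55 of the 51. For Car8 this share was 0.851, with log2 ratios of -0.22, -0.35, -0.34 and -0.36 on arrays 1 to 4. For Adgre1, a macrophage marker, it was 0.867, with -0.49, -0.18, -0.45 and -0.45 on arrays 1 to 4. No member probe passed the limit, and the highest was Kcnj10 at 0.803.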

How the results depend on the processing

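Alternatives changed the size of the counts more than the members' direction. The 6 lower member probes became 4 to 5 when a replicate was left out, 4 with no replicate block (that is, unpaired samples), and 13 when arrays were centred on their median without loess, which also made 1 member probe higher, the dim Slc4a4 probe at 0.33. Over all probes, 3527 lower and 2811 higher became 15614 and 7883 with median centring, 1928 and 1806 with plain background subtraction, and 1748 and 1644 with no replicate block; lower probes alone moved to 2028 with the scanner software's log ratios and 2027 with the series matrix. Leaving out a replicate gave 1356 to 2164 lower and 1064 to 1651 higher. Of the pathway genes, 21 lower became 74 with median centring, 11 with plain subtraction and 10 each with scanner log ratios, series matrix and no replicate block (2 higher); leaving out a replicate gave 9 to 13 lower and 1 to 3 higher. Of the marker genes, 32 lower became 129, 14, 9, 9 and 10 under the same 5 settings, and 6 higher became 3 with plain subtraction, scanner log ratios or series matrix; leaving out a replicate gave 11 to 25 lower and 2 to 6 higher. With median centring, single genes also turned round: Dag1 to -0.13, Etnppl to -0.017, Mal to -0.22, Mbp to -0.16 and Nefm to -0.11. The drop of the counts with a replicate left out comes with 3 arrays in place of 4; other causes were not tested. Depth does not apply to arrays; 1 Slc4a4 probe was near background.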
